A study of Mus musculus with 6 samples.

Results

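The expression of 10 genes of the YAP and TEAD module was examined in mouse neural stem cell (NSC) cultures: the coactivators Yap1 and Wwtr1, the transcription factors Tead1, Tead2 and Tead3, the kinases Lats1 and Lats2, and the targets Ctgf, Cyr61 and Amotl2. They were taken by symbol from a bulk RNA-seq table of 24972 gene names, and all 10 were among the 13964 genes that were tested. Libraries were made from 3 cultures of Tsc2 wild type/wild type genotype (wt/wt), titled Control, and 3 labelled Tsc2 mutant/mutant (mut/mut), titled TSC, in which Tsc2 is floxed. All 6 cultures came from the ventricular-subventricular zone (V-SVZ) of neonatal pups injected with tamoxifen, and all carried Nestin-CRE-ERT2, a Cre recombinase that is driven by the Nestin promoter and activated by tamoxifen, and a red fluorescent Rosa reporter. Cells were grown as monolayers with EGF and FGF and passaged, so the values describe subcultured cells and not the tissue. The labels do not say whether each culture came from its own animal, and p-values measure the spread between these cultures only.

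YAP, encoded by Yap1, and TAZ, encoded by Wwtr1, are coactivators without a DNA-binding domain of their own, and they reach DNA through the TEAD factors. The Hippo kinases MST1 and MST2 activate LATS1 and LATS2, which phosphorylate YAP and TAZ so that they are held in the cytoplasm by 14-3-3 proteins or degraded. When the kinases are inactive, YAP and TAZ enter the nucleus and raise genes such as Ctgf and Cyr61, which encode secreted matricellular proteins, and Amotl2 and Lats2, whose products restrain YAP in turn. Phosphorylation and nuclear entry are not seen in mRNA.

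TEAD factors bind the motif GGAATG, read as CATTCC on the other strand. The 250 bases before the transcription start were searched for it on both strands in RefSeq promoters of build GRCm38.p6, and 12 promoters of 8 of the 10 genes were found. Tead1 and Ctgf are named only. The motif occurred in 7 of these 12 promoters, which belong to 5 genes (Yap1, Wwtr1, Tead3, Cyr61 and Amotl2), against 12.6% of all 32841 promoters searched. The single Tead2 and Lats1 promoters and both Lats2 promoters held no match, and the AP-1 motif TGANTCA occurred in 0 of the 12 against 6.75% of all. A match is a description of the letters and not a bound site. Matches are printed in 30 bases, written 5′ to 3′ on the strand of the gene, with the motif in capitals, and the whole 250 bases are given for Cyr61, a textbook YAP and TEAD target.
Yap1, chr9:8004720-8004749, minus strand: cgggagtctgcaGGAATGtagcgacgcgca
Wwtr1, chr3:57576029-57576058, minus strand: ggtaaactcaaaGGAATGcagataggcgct
Tead3, chr17:28350970-28350999, minus strand: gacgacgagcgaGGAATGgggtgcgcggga
Tead3, another start, chr17:28350706-28350735, minus strand: tccggccgggctCATTCCgtaCATTCCggc
Amotl2, chr9:102717727-102717756, plus strand: ctgaaactctcaCATTCCtggcatagcagc
Cyr61, chr3:145649986-145650235, minus strand: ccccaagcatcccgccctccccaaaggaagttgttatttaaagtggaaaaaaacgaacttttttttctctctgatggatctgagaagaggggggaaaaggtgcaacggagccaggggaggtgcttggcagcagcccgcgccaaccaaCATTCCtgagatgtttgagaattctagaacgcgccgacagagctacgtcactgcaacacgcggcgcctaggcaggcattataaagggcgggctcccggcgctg
The match lay 141 bases before the start in Yap1 and 103 bases before it in Cyr61. In Wwtr1 the same site lay 136 bases before one annotated start and 170 bases before the other. The second Tead3 window and the Amotl2 window touch an annotated exon of the gene.

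Values below are the normalised counts that the authors deposited from DESeq2. The smallest values differ between genes of a library (0.924 for Abcc9 and 0.961 for Kl in mut/mut replicate 2). They are thus not read counts divided by only a single factor per library. Values were compared as log2(value + 1) with limma over all tested genes, two-sided. P-values had Benjamini-Hochberg adjustment, with a threshold of 0.05 on the adjusted p. Fold changes are those of mut/mut over wt/wt with their standard error. The values of the mut/mut libraries summed to 45.0 M, 45.1 M and 55.7 M (M for 1000000) against 28.99 to 30.36 M in wt/wt. By a rough estimate from repeated small values, mut/mut replicate 3, the highest, had the fewest reads (23.7 M, against 33.7 M to 55.3 M in the others). Tsc2 itself was at 2794 to 3231 in wt/wt and at 4766 to 8210 in mut/mut, and these values per gene do not single out the floxed exons. The study reports, with western blots for the Tsc2 protein tuberin, that the NSC subcultures had lost Tsc2. The Y-linked genes Ddx3y (867 to 932 in wt/wt, 2.54 to 7.43 in mut/mut), Uty and Eif2s3y also separated the groups. Xist, which is expressed in female cells, was at 1107 in wt/wt replicate 1, at 87.9 and 68.9 in the other wt/wt libraries and at 290 to 357 in mut/mut, so genotype and the sex of the pups cannot be told apart here. As deposited, 75.5% of all tested genes were called (36.8% higher, 38.7% lower), and 80.6% had groups that did not overlap.

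The clearest result among the 10 genes was a rise of Tead2, already the leading TEAD gene of the controls. It rose about 6-fold in mut/mut, Tead1, Wwtr1 and Lats1 fell, Tead3 fell less, and Yap1, Lats2 and the targets Ctgf, Cyr61 and Amotl2 did not pass the test. This makes 1 gene called higher and 4 called lower of 10, fewer than the 75.5% of all genes that were called. The groups did not overlap in 7 of the 10, with mut/mut above in 1 (39.4% of all genes) and below in 6 (41.2% of all genes). The median log2 fold change was -0.40 over the 10 genes and -0.068 over all genes.

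**Figure D1:**
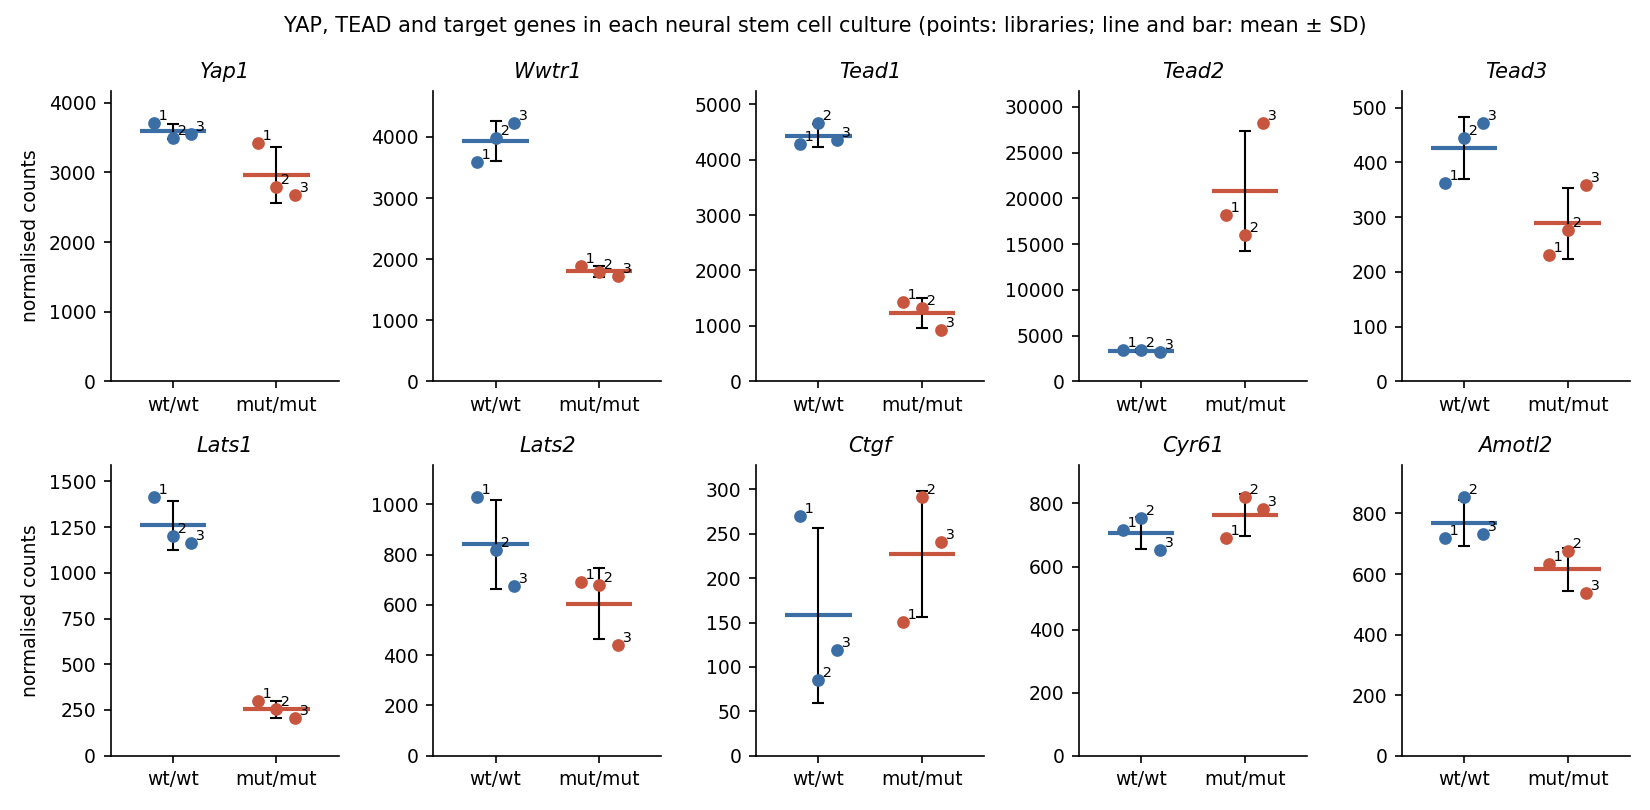
Normalised counts (vertical axis, from 0, its own scale in each panel) of the 10 genes in 3 wt/wt (blue) and 3 mut/mut (red) cultures. Points are libraries numbered by replicate, thick lines are means and black bars are SD. Tead2 lay between 15963 and 28252 in mut/mut and between 3170 and 3462 in wt/wt, whereas the Ctgf, Cyr61 and Lats2 points of the groups overlap.

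Yap1 (chromosome 9, 7931999 to 8004596, minus strand, GRCm38) was at 3713, 3502 and 3555 in wt/wt (3590 ± 110, SD, n = 3) and at 3421, 2798 and 2673 in mut/mut (2964 ± 400, SD, n = 3). Every mut/mut value lay below every wt/wt value, but mut/mut replicate 1 was close to the control range. The log2 fold change of -0.28 ± 0.16 (95% interval -0.63 to 0.061) did not pass limma's test (adjusted p = 0.119).

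Wwtr1, which encodes the YAP paralogue TAZ (chromosome 3, 57455649 to 57575910, minus strand), was at 3585, 3976 and 4231 in wt/wt (3931 ± 325, SD, n = 3) and at 1888, 1792 and 1719 in mut/mut (1800 ± 85.0, SD, n = 3). The groups were well apart, and the mut/mut values were close to each other. It fell by 1.12 ± 0.15 on the log2 scale (limma, adjusted p = 6.08e-05). Within a library, the log2 ratio of Wwtr1 to Yap1 per kilobase of transcript was -0.043 on average in wt/wt and -0.88 in mut/mut, a difference of -0.84 (exact permutation test, two-sided, p = 0.1, the lowest possible with 3 cultures a group). As deposited, the coactivators were thus at about equal levels per kilobase in wt/wt, and Wwtr1 was the lower one in mut/mut. After correction for transcript GC content and length, the difference in ratio reversed to 0.65.

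Tead1 (chromosome 7, 112679318 to 112906807, plus strand), a DNA-binding partner of YAP and TAZ, was at 4281, 4662 and 4354 in wt/wt (4432 ± 202, SD, n = 3) and at 1434, 1331 and 923 in mut/mut (1229 ± 270, SD, n = 3). All mut/mut values were far below the wt/wt values, and replicate 3 was the lowest. It fell by 1.87 ± 0.19 on the log2 scale (limma, adjusted p = 1.05e-05).

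Tead2 (chromosome 7, 45215753 to 45233644, plus strand), the TEAD gene known for its expression in the neural progenitors of the embryo, was at 3462, 3397 and 3170 in wt/wt (3343 ± 153, SD, n = 3) and at 18214, 15963 and 28252 in mut/mut (20810 ± 6543, SD, n = 3). Every mut/mut library was well above the controls, and replicate 3, the library with the highest total, was the highest. The log2 fold change was 2.59 ± 0.21 (95% interval 2.13 to 3.06, limma, adjusted p = 2.98e-06), a fold of 6.04. Leaving out 1 library at a time gave 2.35 to 2.76.

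Tead3 (chromosome 17, 28331671 to 28350817, minus strand) was the least expressed of these 3 factors. It was at 363, 444 and 472 in wt/wt (426 ± 56.8, SD, n = 3) and at 230, 277 and 358 in mut/mut (289 ± 64.7, SD, n = 3). The highest mut/mut value came within a few counts of the lowest wt/wt value. It fell by 0.58 ± 0.22 on the log2 scale (limma, adjusted p = 0.0362), and this call was lost without wt/wt replicate 2 (adjusted p = 0.113) or 3 (0.138) and without mut/mut replicate 1 (0.113) or 2 (0.0847). Tead4, the remaining TEAD gene, was at 11.2 to 24.4 in wt/wt and at 18.4 to 24.5 in mut/mut and did not pass the test (adjusted p = 0.731).

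With counts divided by transcript length, Tead2 held 64.2%, 61.1% and 60.4% of all TEAD counts in the wt/wt libraries and 95.8%, 95.2% and 97.3% in the mut/mut libraries. Tead1 held 28.0% ± 0.813 (SD, n = 3) in wt/wt and 2.12% ± 0.899 in mut/mut, and Tead3 held 9.68% ± 1.39 and 1.67% ± 0.304. Tead4 was at or under 0.485% in every library. Tead2 was thus already the leading TEAD transcript of the controls and was nearly the only one in mut/mut. The summed TEAD counts per kilobase were 1589 ± 45.96 in wt/wt and 6362 ± 1921 in mut/mut (SD, n = 3). The log2 ratio of Tead2 to Tead1 within a library was 1.25, 1.10 and 1.10 in wt/wt and 5.22, 5.14 and 6.49 in mut/mut. The means were 1.15 and 5.61, a difference of 4.47 that a common factor per library leaves unchanged (exact two-sided permutation p = 0.1, the smallest possible). This difference was 1.91 after correction for transcript GC content and length. The log2 ratio of Tead3 to Tead1 went from -1.54 to -0.24, a difference of 1.30 that reversed to -1.41 after the same correction.

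**Figure D2:**
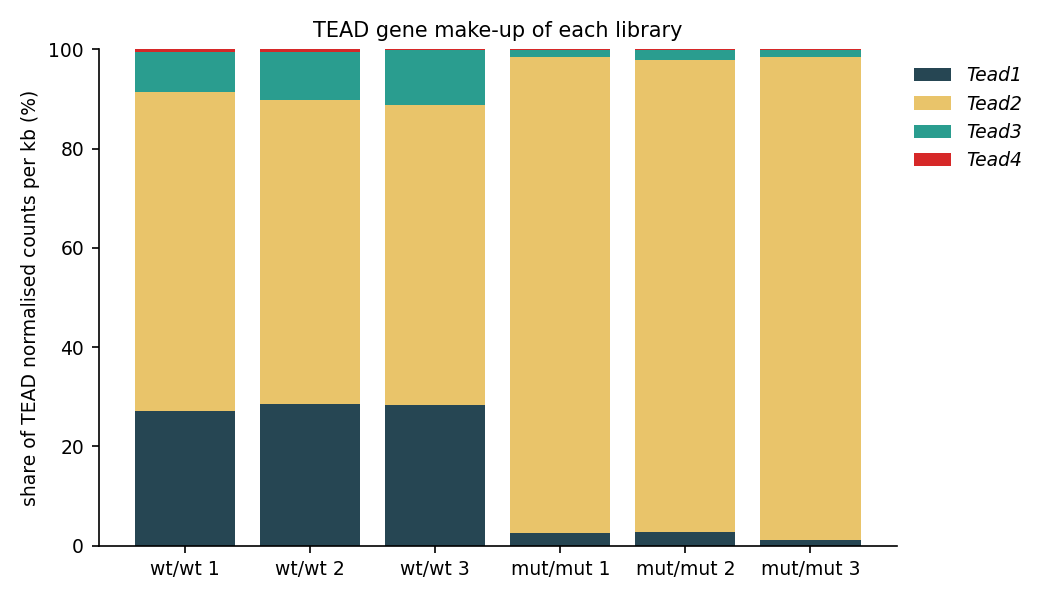
Stacked bars give the share (%, vertical axis from 0 to 100) of the 4 TEAD genes in the summed TEAD normalised counts per kilobase, for each of the 6 libraries. Tead2 made up 60.4% to 64.2% of the bar in wt/wt and 95.2% to 97.3% in mut/mut.

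Lats1 and Lats2 encode the kinases that phosphorylate YAP and TAZ. Lats1 (chromosome 10, 7681214 to 7716460, plus strand) was at 1414, 1203 and 1162 in wt/wt (1259 ± 135, SD, n = 3) and at 299, 258 and 204 in mut/mut (253 ± 47.6, SD, n = 3). No mut/mut library came near the controls, and the fall of 2.32 ± 0.20 on the log2 scale passed limma's test (adjusted p = 4.53e-06). Lats2 (chromosome 14, 57689662 to 57758388, minus strand) was at 1029, 819 and 677 in wt/wt (842 ± 177, SD, n = 3) and at 692, 680 and 442 in mut/mut (605 ± 141, SD, n = 3). The groups overlapped, and the log2 fold change of -0.48 ± 0.23 did not pass (adjusted p = 0.0827). The log2 ratio of Lats2 to Lats1 per kilobase was -0.12 in wt/wt, near equal levels, and 1.71 in mut/mut (difference 1.84, exact two-sided permutation p = 0.1, the smallest possible). After correction for transcript GC content and length, this difference reversed to -0.35.

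None of the 3 targets Ctgf, Cyr61 and Amotl2 passed the test as deposited. Ctgf (chromosome 10, 24595442 to 24598683, plus strand), which encodes connective tissue growth factor, was at 270, 84.9 and 119 in wt/wt (158 ± 98.5, SD, n = 3) and at 151, 291 and 241 in mut/mut (228 ± 71.1, SD, n = 3). The groups overlapped because wt/wt replicate 1 was as high as the upper mut/mut values. The log2 fold change was 0.65 ± 0.40 (95% interval -0.25 to 1.55, limma, adjusted p = 0.169), and without wt/wt replicate 1 it was 1.12 ± 0.33 and passed (adjusted p = 0.0163). The same library stood apart in Xist, and the part of this in the Ctgf values was not tested.

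Cyr61 (chromosome 3, 145646976 to 145649981, minus strand), another secreted matricellular protein gene of the CCN family, was at 714, 754 and 654 in wt/wt (707 ± 50.5, SD, n = 3) and at 691, 820 and 782 in mut/mut (764 ± 66.4, SD, n = 3). The groups overlapped, and the difference of 0.11 ± 0.17 on the log2 scale (95% interval -0.27 to 0.49) did not pass (limma, adjusted p = 0.568). Amotl2 (chromosome 9, 102716672 to 102733418, plus strand), whose product binds YAP at cell junctions, was at 717, 854 and 732 in wt/wt (768 ± 75.0, SD, n = 3) and at 634, 677 and 537 in mut/mut (616 ± 71.3, SD, n = 3). All mut/mut values lay below the controls, but the log2 fold change of -0.32 ± 0.18 did not pass (limma, adjusted p = 0.127). The log2 ratio of Cyr61 to Ctgf was 2.63 in wt/wt and 2.09 in mut/mut (exact two-sided permutation p = 0.5). Ratios were computed for 5 pairs of genes, and none can fall under 0.1.

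In levels per kilobase of transcript, the order in wt/wt was Tead2 (984), Yap1 (861), Wwtr1 (837), Tead1 (445), Cyr61 (350), Amotl2 (177), Lats1 (175), Lats2 (162), Tead3 (154) and Ctgf (63.5), and the ranges over libraries overlapped between Yap1 and Wwtr1 and between each neighbour from Amotl2 to Tead3. In mut/mut it was Tead2 (6128), Yap1 (711), Wwtr1 (383), Cyr61 (379), Amotl2 (142), Tead1 (123), Lats2 (116), Tead3 (104), Ctgf (91.4) and Lats1 (35.2). There Wwtr1 and Cyr61 overlapped, as did each neighbour from Amotl2 to Ctgf. Tead2 was thus the top transcript in both groups, while Tead1 moved down among Amotl2, Lats2, Tead3 and Ctgf, under Cyr61, and Lats1 became the lowest of the 10.

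Fold changes across all genes went with the GC content and length of the transcript, and the 10 genes have to be read against this. Over the 13274 genes with both values known, the median log2 fold change rose from -2.06 in the quintile of genes with the lowest GC content to 0.94 in the highest quintile. In the lowest, 81.7% of genes were called lower, and in the highest 64% were called higher. Lats1 (43.0% GC) and Wwtr1 (43.9%) are in the lowest quintile and Tead1 (46.5%) is in the next, whereas Tead2 (57.9%), Tead3 (59.5%) and Amotl2 (56.6%) are in the highest. The fall of Lats1 was therefore close to the median of its quintile, that of Wwtr1 was smaller than it, and that of Tead1 was larger than the -0.73 of its own and below its lower quartile of -1.79. Tead2 lay above the upper quartile of its quintile, and Tead3 and Amotl2 lay below the lower one. With Tead1, 4 of the 10 genes were outside the quartiles of their quintile. By construction, the quartiles leave as many of all genes outside as inside. Whether the trend arose with genotype or in library preparation cannot be told apart in these 6 libraries.

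**Figure D3:**
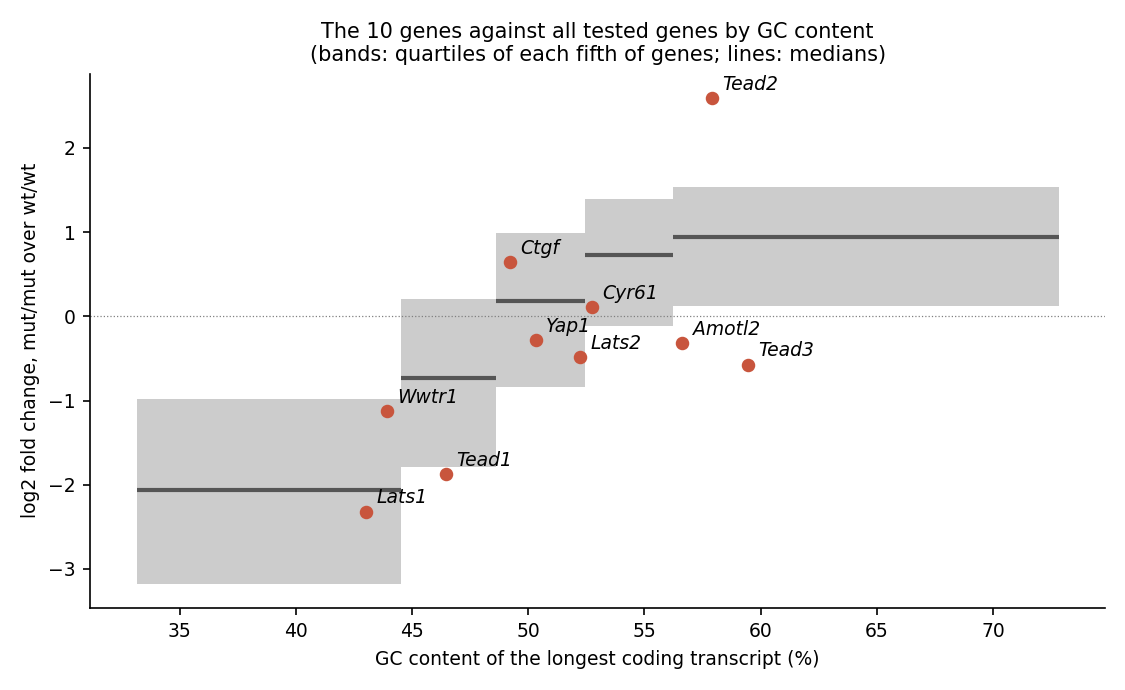
Log2 fold change, mut/mut over wt/wt, of the 10 genes (red points) against the GC content (%) of the longest coding transcript. Grey bands span the quartiles and dark lines the medians of each quintile of all tested genes. The medians climb from -2.06 to 0.94, Tead2 lies above its band, and Tead1, Tead3 and Amotl2 lie below theirs.

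Once each library's dependence on GC content and length had been taken out of the log2 values, Tead2 remained higher (2.00 ± 0.13, limma, adjusted p = 2.52e-06) and Tead3 remained lower (-1.32 ± 0.15, adjusted p = 3.96e-05). Tead1 (0.085 ± 0.10, adjusted p = 0.463) and Lats1 (0.089 ± 0.13, adjusted p = 0.557) were not called, and Wwtr1 turned to higher (0.54 ± 0.17, adjusted p = 0.0154). Cyr61 (-0.60 ± 0.13, adjusted p = 0.00235) and Amotl2 (-0.63 ± 0.18, adjusted p = 0.00988) were called lower, and Yap1 was not called (-0.11 ± 0.11, adjusted p = 0.402). Of all genes, 69.9% were called in this setting (40.7% higher, 29.1% lower) with a median of 0.15. The difference of the Tead2 to Tead1 ratio was 1.91 and kept its direction, while those of Wwtr1 to Yap1 (0.65), Tead3 to Tead1 (-1.41) and Lats2 to Lats1 (-0.35) reversed.

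With each library set to the same total, the median of all genes was -0.77, and 75.1% of genes were called, 20.6% higher and 54.5% lower. Tead2 was still higher (1.88), 8 of the 10 genes were called lower, among them Yap1 (-0.997, limma, adjusted p = 0.00113), and Ctgf was near no difference (-0.063, adjusted p = 0.902). Tead2 and Tead3 were the only 2 of the 10 called in the same direction in all 3 scalings, 20% of them against 41.5% of all genes (19% higher, 22.5% lower). Ctgf was called in none of the 3.

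**Figure D4:**
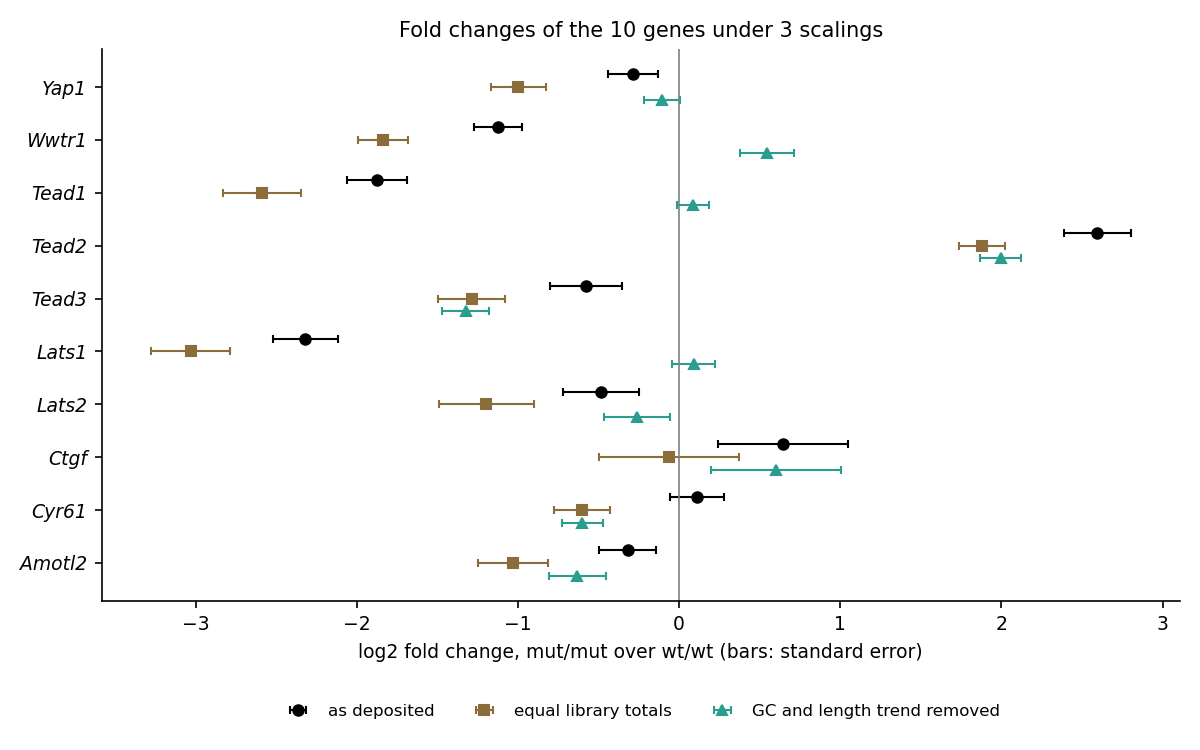
Log2 fold change, mut/mut over wt/wt (horizontal axis, bars are standard errors), of the 10 genes with values as deposited (black circles), with equal library totals (brown squares) and after removal of the GC and length trend (green triangles). Tead2 lies at 1.88 to 2.59 in all 3, whereas Tead1, Lats1 and Wwtr1 are far below 0 as deposited and at 0.085, 0.089 and 0.54 with the trend removed.

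The other pathway genes give the setting of these members. Across the pathway lists, 59 further genes were tested: 15 rose, 31 fell and 13 did not pass, with a median log2 fold change of -0.59, and under trend removal 24 were higher and 17 lower. Of all genes 75.5% were called (36.8% higher, 38.7% lower), and 69.9% under trend removal (40.7% higher, 29.1% lower). The call was the same in the 3 scalings in 6 higher and 16 lower genes, 37.3% of the 59 against 41.5% of all genes. Nov, counted among the 31 and the 16, passed the expression filter only through its wt/wt values.

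Upstream of Lats1 and Lats2, the kinase module (9 genes tested besides these) held 0 called higher and 8 called lower (36.8% and 38.7% of all genes), and under trend removal 2 were higher and 5 lower (40.7% and 29.1% of all genes). Stk3, which encodes MST2, was at 682, 721 and 694 in wt/wt and at 82.7, 85.1 and 51.5 in mut/mut, and it fell by 3.27 ± 0.24 on the log2 scale (limma, adjusted p = 1.70e-06). Taok1, a kinase that activates the MST kinases, fell by 4.61 ± 0.31, and Mob1a, a LATS cofactor, fell by 2.14. These 3 genes were also lower with the trend removed, at -1.77 for Stk3, -1.21 for Taok1 and -0.45 for Mob1a. Mob1b, the paralogue of Mob1a, fell by 2.22 as deposited and was at 1.46 with the trend removed. Of 9 junctional and upstream scaffold genes, 2 rose and 5 fell (36.8% and 38.7% of all genes). Those that fell included Tjp1, which encodes the tight junction protein ZO-1 (-2.78, and -1.24 with the trend removed), the protocadherin gene Fat4 (-1.70, and -0.21), Wwc1, which encodes KIBRA (-0.50, and -0.76), and its paralogue Wwc2 (-0.73, and 0.40). Amot and Amotl1, the paralogues of Amotl2, fell by 1.24 and 0.89 as deposited and were at 0.32 and 0.052 with the trend removed.

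Genes whose products restrain the Hippo kinases divided. Of 11 tested, 5 rose and 6 fell (36.8% and 38.7% of all genes), and 7 were higher and 3 lower with the trend removed (40.7% and 29.1%). Ajuba, a LIM protein that binds LATS kinases, was at 570, 485 and 544 in wt/wt and at 1822, 2105 and 2946 in mut/mut, a log2 fold change of 2.07 ± 0.20 (limma, adjusted p = 8.76e-06) that was 1.36 with equal totals and 1.47 under trend removal. Its relatives Limd1 (1.14) and Wtip (1.93) rose too in all 3 scalings, and they were chosen after their values were seen. Components of the STRIPAK phosphatase complex, which dephosphorylates the MST kinases, went both ways. Slmap fell by 3.21 and Strn3 fell by 2.89, and both were also lower with the trend removed (-1.80 and -2.34), Mob4 fell by 2.24 as deposited but was at 0.21 there, and Strn4, also chosen after its values were seen, was higher in the 3 scalings. Among 7 genes of 14-3-3 proteins, which hold phosphorylated YAP in the cytoplasm, 3 rose and 0 fell (36.8% and 38.7% of all genes). Ywhag was at 0.97, Ywhah at 0.89, Ywhaq at 0.56 and Ywhab at 0.44 (limma, adjusted p = 0.0554, not passing). With equal totals 0 of the 7 were higher and 2 were lower (20.6% and 54.5% of all genes), and with the trend removed 6 were higher and 0 lower (40.7% and 29.1%). Vgll4, which encodes a cofactor that competes with YAP for TEAD, was at 0.53 (limma, adjusted p = 0.0067), and under the other scalings at -0.19 (equal totals) and -0.27 (trend removed). Vgll2 was at 1.61 and did not pass (adjusted p = 0.185), and Vgll1 was at 0 in all libraries.

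A list of 22 YAP targets, written from general knowledge and including Ctgf, Cyr61, Amotl2 and Lats2, held 21 tested genes, since Ankrd1 was at 0 in all libraries. Of these, 4 rose, 9 fell and 8 did not pass (36.8% and 38.7% of all genes rose and fell), with a median of -0.32. Equal totals gave 1 higher and 14 lower (20.6% and 54.5% of all genes), and trend removal gave 5 higher and 7 lower (40.7% and 29.1%). Nuak2, a kinase gene, rose from 179 to 861 (2.25 ± 0.21, limma, adjusted p = 7.46e-06) and was higher in all 3 scalings. Gadd45b, a stress response gene, fell from 634 to 97.5 (-2.63, and -3.83 with the trend removed), and Tgfb2, which encodes a growth factor, fell from 1050 to 214 (-2.30, and -1.18). Rbms3, an RNA-binding protein gene, fell by 3.08 as deposited and was at -0.20 with the trend removed. Of the CCN family, to which Ctgf and Cyr61 belong, 3 of 6 passed the expression filter, and Nov, at 27.8 ± 17.8 in wt/wt and 2.59 ± 0.172 in mut/mut (SD, n = 3), passed only through its wt/wt values, so its difference is given with no test. 

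**Figure D5:**
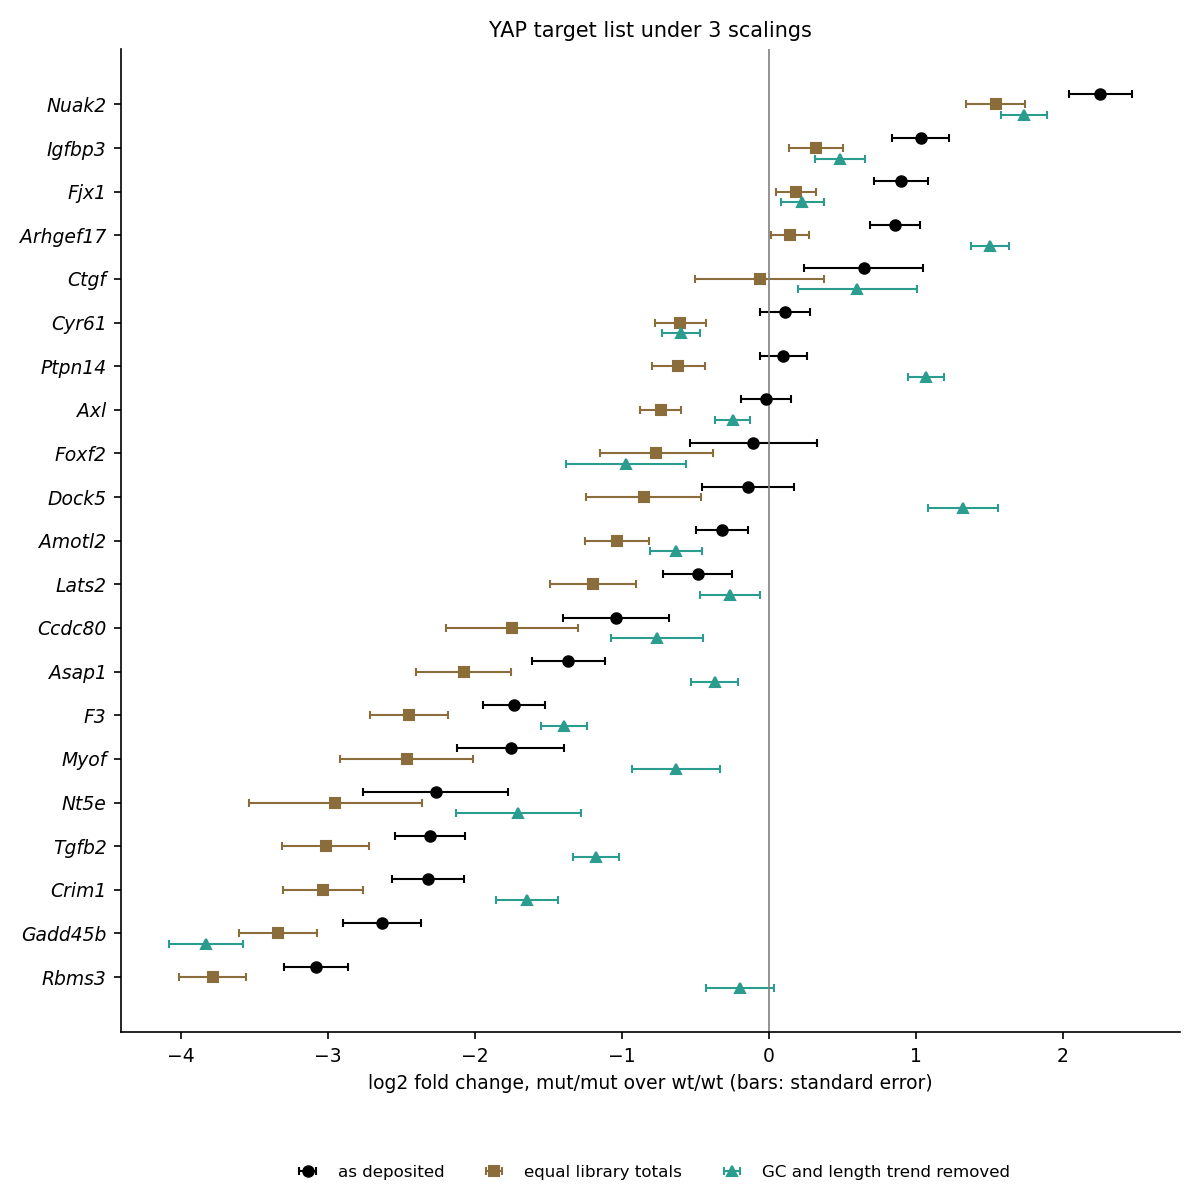
Log2 fold change, mut/mut over wt/wt (horizontal axis, bars are standard errors), of the 21 tested genes of the YAP target list, in order of their value as deposited, under the 3 scalings. Nuak2 stands at the top (2.25 as deposited) and Rbms3 at the bottom (-3.08), and the member genes Ctgf, Cyr61, Amotl2 and Lats2 lie in the middle.

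Genes with a profile over the 6 libraries close to that of Yap1 included Acin1 (root mean square difference 0.0455 on the centred log2 scale) and Fam149b (0.0468), and 102 of the 11417 genes compared lay within 0.1. For Ctgf the nearest were Adra1b (0.249), Npr1 (0.277) and Slco3a1 (0.313), and 0 genes lay within 0.1.

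Markers of other cells also moved with genotype, and in bulk samples fewer cells of a type and less RNA per cell cannot be told apart. The counts of markers called are to be read beside the 36.8% higher and 38.7% lower of all genes. The NSC list (Nes, Sox2, Vim and 5 others) summed to 265779 to 294598 in wt/wt and 251814 to 281648 in mut/mut. Vim and Olig2 were the most abundant on average over both groups. Of the 8 genes, 2 were called higher, Vim (0.66 on the log2 scale) and Olig2 (0.35). Another 3 were called lower, Sox2 (-1.28), Slc1a3 (-1.35) and Fabp7 (-2.43). With equal totals 0 were higher and 7 lower (20.6% and 54.5% of all genes). With the trend removed 1 was higher and 5 lower (40.7% and 29.1%). In wt/wt alone, Slc1a3 averaged 41992 and Olig2 40412. Smooth muscle genes summed to 1706 to 1797 in wt/wt and 11869 to 16982 in mut/mut, with 4 of 5 tested higher. Smtn and Acta2 were the most abundant over both groups, and by change Acta2 (5.87 on the log2 scale), Tagln (5.48) and Myl9 (3.92) were ahead of Smtn (2.01), while Myh11, a defining marker, was under the expression filter. Microglial genes summed to 414 to 1106 in wt/wt and 22.8 to 40.0 in mut/mut, with 7 of 7 lower and Aif1, Cx3cr1 and Ptprc at 0 in every mut/mut library. These 3, and also C1qb and Tyrobp (7.40 and 2.14 on average in mut/mut), passed the filter only through wt/wt. Pericyte genes, mostly Cspg4 and Notch3, went from 10022 to 15406 in wt/wt to 4077 to 6745 in mut/mut. Of 6 tested, only Cspg4 was called lower (-2.58), and 5 did not pass, among them Notch3 (-0.28). Rgs5, Kcnj8 and Abcc9 were under the expression filter. Endothelial genes went from 472 to 949 to 108 to 224, mostly Flt1 (412 to 895 in wt/wt, 59.2 to 159 in mut/mut). Of 3 tested, 1 was higher and 1, Flt1 (-2.67), was lower. Pecam1, Cldn5, Tek, Erg and Emcn were under the filter. The higher endothelial gene, Kdr (9.34 on average in wt/wt and 21.4 in mut/mut), passed the filter only through mut/mut. Ependymal genes, mostly Foxj1, summed to 816 to 1229 in wt/wt and 6093 to 8861 in mut/mut with 2 of 4 tested higher, and choroid plexus genes to 222 to 819 and 572 to 1646 with 1 of 3 higher. The higher choroid plexus gene, Folr1 (3.67 on average in wt/wt and 22.2 in mut/mut), also passed the filter only through mut/mut. Oligodendrocyte precursor genes summed to 85550 to 99498 in wt/wt and 124365 to 185612 in mut/mut, with 1 of 5 higher and 4 lower. The sum followed Olig1 (0.76 on the log2 scale), by far the most abundant, whereas Pdgfra (-5.26), Gpr17 (-5.41), Lhfpl3 (-4.78) and Sox10 (-3.73) fell. Fibroblast genes summed to 352 to 880 and 333 to 953, with 1 of 4 higher. The part of these cells in the differences of the 10 genes was not tested.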

How the data were processed

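Poly(A) RNA of the 6 mouse NSC cultures was sequenced in pairs by the study. Per the methods and the submitters' processing notes, the authors trimmed adapters, aligned reads to mm10 with STAR and normalised them with DESeq2. Which program counted reads per gene, with which annotation and whether by strand, was not given in the sources used here, and genes that overlap, antisense ones included, may share reads. The signal that the authors deposited was a table of DESeq2-normalised counts, 1 column per library, of which 6503 names were at 0 throughout and 26 had been turned into dates. Low values fell within 0.1 of a multiple of the estimated value of 1 read in only 28.0% to 57.7% of cases, so whole reads could not be recovered, and no count model was fitted. Total reads per library, 23.7 M to 55.3 M (M for 1000000), are rough estimates that take 1 such value per library. The column taken as wt/wt replicate 2 differs from its label by 1 inserted digit.

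Genes with a mean of at least 10 were tested as log2(value + 1), which understates changes of low genes, with limma 3.58.1 in R 4.3.3 (linear model on genotype, trend and robust settings), adjusted by Benjamini-Hochberg over all 13964 genes. The GC content and length of the longest coding transcript, and positions, came from a GENCODE annotation of GRCm38, and were found for 95.1% of tested genes. Their trend was removed with natural splines of 5 degrees of freedom per library. Tables and figures were made with python 3.11.15, pandas 2.3.3 and matplotlib 3.10.9, and the fit was tested on simulated data. Other settings tried were pseudocounts of 0.5 and 10, a mean filter of 100 or none, equal totals, limma without trend and robust settings, the replicate number as a block, and leaving out each library. The 10 genes and the lists were chosen with earlier results of these data known. Genes named besides the 10 and Tsc2 were up to 4 per list with the smallest adjusted p, the 3 genes averaging 100 or more whose profiles were nearest those of Yap1 and Ctgf, and the 2 most abundant of each marker list. Not every gene that this rule selects is reported here. Other names were chosen after their values were seen.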

Additional observations from a re-analysis of the deposited data

How the results depend on the processing

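Scaling mattered most. With equal library totals, 2874 genes were called higher and 7612 lower, 9 of the 10 genes were called (8 lower), 1 of the YAP target list was called higher and 14 lower, and Ctgf (-0.063) and Cyr61 (-0.60) changed sign. With the GC and length trend removed, 5409 genes were called higher and 3868 lower, 2 of the 10 were called higher, Wwtr1 (0.54), Tead1 (0.085), Lats1 (0.089) and Cyr61 (-0.60) changed sign, and the differences in ratio were 0.65 for Wwtr1 to Yap1, 1.91 for Tead2 to Tead1, -1.41 for Tead3 to Tead1 and -0.35 for Lats2 to Lats1. Tsc2 was at 0.31 with equal totals (limma, adjusted p = 0.0812). Pseudocounts of 0.5 and 10, both mean filters and limma without trend and robust settings changed no call of the 10 genes. The numbers of replicates did not pair the samples (correlations of same-numbered deviations 0.112, -0.00369 and 0.0712). With the number as a block, Lats2 (-0.48) passed (limma, adjusted p = 0.0352) and no other call of the 10 changed. Leaving out 1 library at a time gave 9611 to 10797 genes called (4643 to 5290 higher, 4968 to 5507 lower), 4 to 6 of the 10 (1 to 2 higher, 3 to 4 lower), 13 to 13 of the target list (4 to 5 higher, 8 to 9 lower), and ratio differences of -0.93 to -0.77 for Wwtr1 to Yap1, 4.03 to 4.71 for Tead2 to Tead1, 0.94 to 1.57 for Tead3 to Tead1, 1.74 to 1.90 for Lats2 to Lats1 and -0.999 to -0.13 for Cyr61 to Ctgf. The causes were not tested. With 3 cultures a group, the intervals of Yap1, Ctgf and Cyr61 do not set a direction.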
